A study of Drosophila melanogaster with 9 samples.

Results

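The translation factors and tRNA synthetases of *Drosophila melanogaster* were followed through the TRAP-seq libraries of ovarian follicle cells. Members were taken by name: every protein-coding gene whose symbol begins with eIF, eEF or eRF, or which is called by a 3-letter amino acid followed by RS, with or without -m for the mitochondrial enzyme. This gave 89 of the 14077 genes in the files. They comprise 9 genes for the initiator tRNA complex and start codon recognition, 5 subunits of eIF2B, 16 eIF3 genes, 13 eIF4 genes, *eIF6*, 8 elongation factors, 2 release factors, 20 cytosolic synthetases and 15 mitochondrial synthetases. TRAP-seq reads the mRNA bound to a GFP-tagged ribosomal protein that is expressed only where a GAL4 driver is active. All 9 libraries carry the tag, and there were 3 per group, each from about 100 flies. Per the paper, the input was thoraxes and abdomens rather than dissected ovaries, and abdomens are named at the homogenization step. Fed and starved all-follicle-cell libraries (AFCs) came from GR1-Gal4>UAS-Rpl10A-GFP flies, and fed stretch follicle cell libraries (SFCs) from PG150-Gal4>UAS-Rpl10A-GFP flies. Fed flies were aged for 3 days at 25°C and then received yeast paste on 2 days, and starved flies were kept for 16 to 20 h on apple juice agar with no yeast. The labels name the cells of the GR1 libraries main body follicle cells, but the GR1 driver is active in all follicle cells, SFCs included, and weakly in the gut, and PG150 is also active in centripetal cells and weakly in the Malpighian tubules. The cell type and the driver change together, so they cannot be told apart. In such bulk libraries fewer cells of a type and less RNA per cell cannot be told apart either.

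Translation initiates when eIF2 brings the initiator tRNA to the small ribosomal subunit, with eIF3 as the large scaffold on that subunit and the eIF4 proteins holding the mRNA by its cap. eIF2B recharges eIF2 with GTP and is the step that stress kinases block. Elongation factors then bring charged tRNAs and move the ribosome, release factors end the chain at a stop codon, and the synthetases charge each tRNA with its amino acid. Follicle cells are secretory cells that make yolk and eggshell proteins, and stretch follicle cells surround the nurse cells and take part in their removal.

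Library totals were 30551253 to 45910215 estimated reads, of which rRNA took 1.19% to 36.3%, the highest share being that of SFC replicate 2. The members took 2.62% to 3.58% of the reads outside rRNA. Fed AFC replicate 1 stood apart: all 89 members had at least 10 reads there, against 80 to 82 members in each of the other libraries. This was not particular to the members, as 13250 of all 14077 genes had at least 10 reads there, against 9273 to 10869 elsewhere. The list for testis and male tract, with 6 genes found of 7, summed to 4.95 CPM (counts scaled to a common library size) in that library and to 0 to 1.98 CPM in the other 8. The neuron and haemocyte lists were also highest in that library. Of the markers, 7 of 10 main body follicle cell genes were lower in SFCs than in fed AFCs, while 0 of 11 stretch cell genes passed the test in either direction (median LFC 0.14). LFC is the log2 fold change here and SE its standard error. All 10 main body genes and all 11 stretch cell genes were read in each group. The 12 muscle genes summed to 537 to 995 CPM in fed AFCs, 554 to 738 in starved AFCs and 989 to 2249 in SFCs, and 6 of them were higher in SFCs. The 8 midgut genes summed to 5130.3 to 8917 CPM in fed AFCs, 4168 to 5697 in starved AFCs and 2125 to 3984 in SFCs. Of these, 5 were lower in SFCs than in fed AFCs. Over all genes tested, 1.21% were called higher and 1.78% lower in SFCs against fed AFCs. The 5 Malpighian tubule genes found of 6 summed to 254 to 532 CPM in fed AFCs, 337 to 760.1 in starved AFCs and 581 to 745 in SFCs, with a median LFC of 1.18 in SFCs against fed AFCs, and none of them passed the test. *RpL10Ab*, the gene of the tagged ribosomal protein, ranged from 2535 to 4216 CPM in fed AFCs, 2474 to 3364 in starved AFCs and 1132 to 2211 in SFCs. The part of these differences in the results on the members was not tested.

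Levels were compared between genes per length, as TPM, and the 3 libraries of a group are given by their median and range. Elongation factors led. *eEF1alpha1*, which delivers charged tRNAs, had a median of 1502 TPM in fed AFCs (1214 to 2323), *eEF1beta*, a nucleotide exchange factor for it, 1181 TPM (1015 to 1801), and *eEF5*, the hypusine-bearing factor known in mammals as eIF5A, 923 TPM (901 to 1144). *eEF1alpha1* and *eEF1beta* overlapped in range across the libraries, and their order within each library is not given here. *eEF1gamma*, *eIF1* and *eEF2* followed at medians of 658, 550.0 and 522 TPM. The 5 members with the highest medians in fed AFCs, which are these without *eEF2*, held 42.1% to 52.3% of the summed TPM of all members in a library. The median over a role group in fed AFCs was 134 TPM for the 16 eIF3 genes, 85.9 for the initiator and start codon group, 33.9 for the cytosolic synthetases, 32.0 for eIF2B and 5.55 for the mitochondrial synthetases. Summed within a library, the cytosolic synthetases exceeded the mitochondrial ones 6.39 to 7.80 times in fed AFCs, 7.25 to 8.53 times in starved AFCs and 5.48 to 6.08 times in SFCs. The SFC values lay below all 6 AFC values. *eIF4A*, the helicase that unwinds the leader of the mRNA, was read at 29.6 to 40.2 times the TPM of its scaffold *eIF4G1* in fed AFCs, 49.7 to 74.5 times in starved AFCs and 34.8 to 50.6 times in SFCs.

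**Figure D1:**
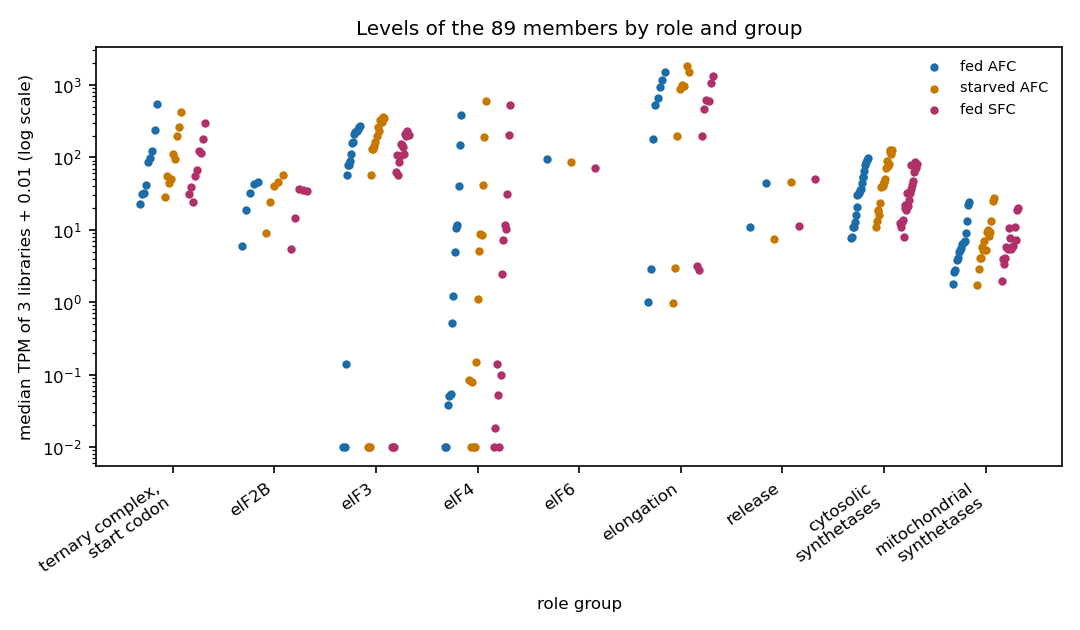
Median TPM of each of the 89 members over the 3 libraries of a group, with 0.01 added so that zeros can be drawn on the log scale, by role group (x axis) and by group of libraries (color). Elongation factors reach 1502 TPM in fed AFCs, the synthetases lie below 100 TPM there, and 10 members lie below 1 TPM there.

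In several sets of paralogs a widely read gene stood beside genes close to 0, though *eIF4EHP* and *eIF4G2* were not close to 0. For eIF3, *eIF3d1*, *eIF3f1* and *eIF3g1* had medians of 208, 259 and 222 TPM in fed AFCs, whereas their second copies *eIF3d2*, *eIF3f2* and *eIF3g2* had 180, 47 and 83 reads in fed AFC replicate 1 and 0 to 8 reads in each of the other 8 libraries. Among the cap-binding proteins, *eIF4E1* was the main gene, with 234, 335 and 293 CPM in fed AFCs, 317, 259 and 333 in starved AFCs, and 265, 300.4 and 307 in SFCs. Its groups overlapped. *eIF4EHP*, which binds the cap without recruiting the scaffold, had 24.7, 28.7 and 19.4 CPM in fed AFCs, 16.6, 28.2 and 25.4 in starved AFCs, and 21.9, 27.4 and 52.0 in SFCs, and SFC replicate 3 was the highest. It overlaps *Syx1A* on the same strand. *eIF4E3*, *eIF4E4*, *eIF4E6* and *eIF4E7* had 20 to 55 reads in fed AFC replicate 1 and 0 to 29 reads in each other library. *eIF4E5* had 95, 18 and 34 reads in fed AFCs, 8, 14 and 0 in starved AFCs and 6, 0 and 7 in SFCs. *eIF4H2* had 172 reads in fed AFC replicate 1 and 0 to 19 elsewhere, beside 74.4, 90.6 and 37.2 CPM in fed AFCs, 25.2, 44.2 and 54.9 in starved AFCs, and 45.1, 96.9 and 199.6 in SFCs for *eIF4H1*. *eEF1alpha2*, the second gene for the tRNA-delivering factor, was read at 6.74, 3.05 and 5.73 CPM in fed AFCs, 3.12, 7.73 and 5.63 in starved AFCs, and 3.84, 23.0 and 11.4 in SFCs, a small part of the level of *eEF1alpha1*, and SFC replicates 2 and 3 exceeded every other library. Reads of close paralogs can be divided between them by the quantification, so these low values are uncertain. Of the 89 members, 7 did not pass the filter on low counts (*eIF3d2*, *eIF3f2*, *eIF3g2*, *eIF4E3*, *eIF4E4*, *eIF4E6* and *eIF4E7*), and 82 were tested among 10870 genes.

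Fed SFCs were compared with fed AFCs to see how the translation machinery differed between the cells of each driver. In SFCs 1 of the 82 members was called, *eIF3g1*, which was lower (edgeR's quasi-likelihood test with a threshold of 0.05 on the adjusted p). Over all genes 2.99% were called, 1.21% higher and 1.78% lower, and 1 call among the members is too few to compare the shares. The LFC was below 0 in 63 of the 82 members (76.8%), against 55.9% of all genes tested, and the median LFC was -0.36 beside -0.10 over all genes. At an unadjusted p below 0.05, 25 members were lower and 2 higher, where 10.6% and 9.06% of all genes were. The 3 SFC values lay below all 3 fed AFC values for 25 members and above them for 3, where the shares of all genes were 11.8% and 9.12%. DESeq2 called 14 members, 13 lower and 1 higher (10.3%, 6.46% and 3.89% of all genes). Those lower were *eIF1*, *eIF2Bbeta*, *eIF3a*, *eIF3d1*, *eIF3g1*, *eIF3k*, *eIF6*, *eEF5*, *AlaRS*, *GlyRS*, *SerRS*, *alpha-PheRS* and *beta-PheRS*, and the higher was *AspRS-m*. By role, the median LFC was -0.53 for eIF3, -0.54 for cytosolic synthetases, -0.46 for elongation factors, -0.29 for the initiator and start codon group, -0.28 for eIF2B, -0.14 for the release factors, -0.11 for mitochondrial synthetases and 0.02 for the eIF4 genes. Without fed AFC replicate 1 and SFC replicate 2 together, 2 members were called lower, *eIF3g1* and *eIF3k*, and the median LFC was -0.51. The share of all genes called in that fit is not given here.

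**Figure D2:**
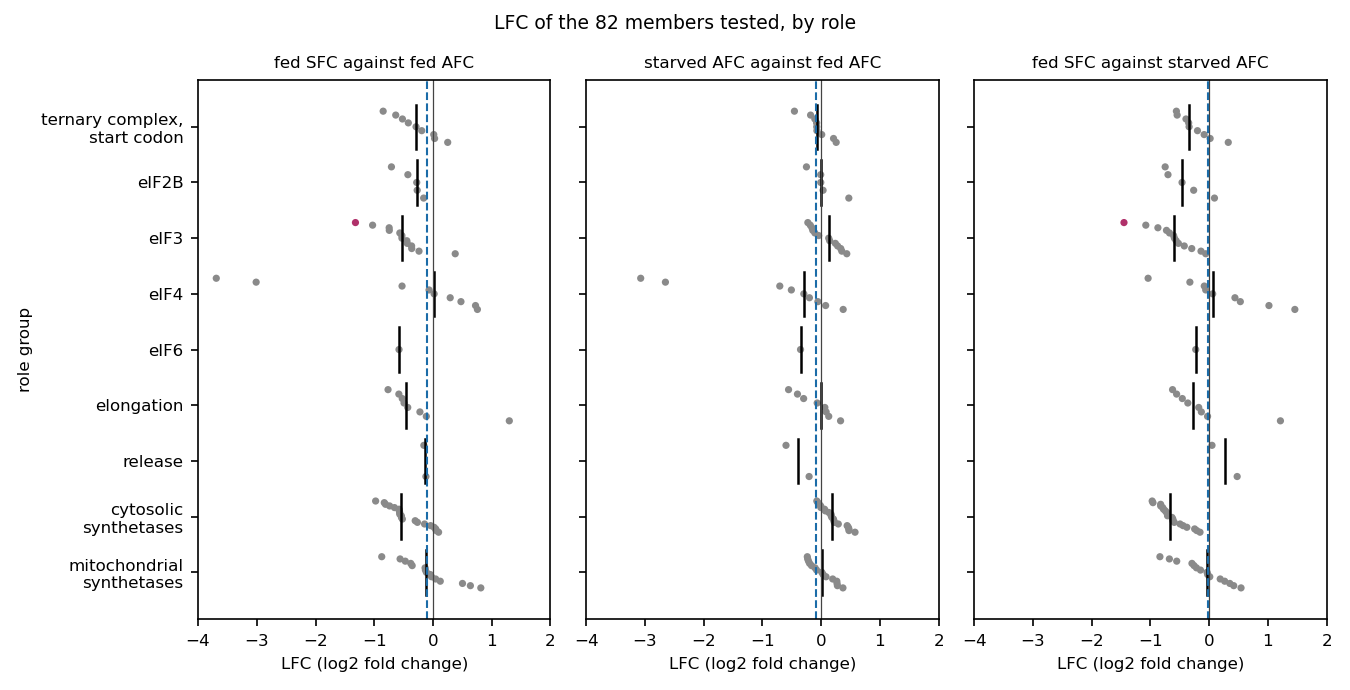
LFC (x axis) of the 82 members tested, 1 point each, by role group (y axis) in the 3 comparisons. Short black lines are medians of a role group, the dashed line is the median over all genes tested, and the colored point is *eIF3g1*, the only member past an adjusted p of 0.05, at -1.32 against fed AFCs and -1.45 against starved AFCs.

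*eIF3g1* (FBgn0029629, chromosome X from 2609247 to 2610336 of BDGP6.54, minus strand) encodes an eIF3 subunit with an RNA recognition motif and has no exon that overlaps another gene. It was read at 273, 389.6 and 379 CPM in fed AFCs, 433, 366 and 341 in starved AFCs, and 136, 161 and 119.9 in SFCs. All 3 SFC libraries were below all 6 AFC libraries. Its level in SFCs was 0.400 times that in fed AFCs (LFC -1.32, SE 0.24, adjusted p = 0.0123, edgeR's quasi-likelihood test). The call was lost without fed AFC replicate 3 (adjusted p = 0.0760), without SFC replicate 2 (0.0668) or without SFC replicate 3 (0.0547), and the LFC lay between -1.47 and -1.19 with any 1 library left out. With a trend on exon length removed it was -0.98 (adjusted p = 0.0394). Within a library the TPM of *eIF3g1* was 1.38 to 1.42 times the median of the other 12 eIF3 subunits tested in fed AFCs, 1.32 to 1.60 times in starved AFCs and 0.66 to 0.79 times in SFCs. This ratio was chosen after the values were seen and is given without a test.

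Of the other eIF3 subunits, 11 of 12 had an LFC below 0 in SFCs against fed AFCs, and none passed the test. *eIF3k*, a small subunit at the edge of the complex, was read at 263, 548 and 352 CPM in fed AFCs, 359, 291 and 394 in starved AFCs, and 199, 202 and 169 in SFCs. SFCs were below every AFC library (LFC -1.03, SE 0.28, adjusted p = 0.0732), but its exons overlap *Tbp* on the other strand and the libraries keep no strand. *eIF3d1*, whose protein can bind the cap in mammals, had 563, 699 and 847 CPM in fed AFCs, 685, 569 and 602 in starved AFCs, and 479, 443 and 335 in SFCs. Again the SFC values were the lowest (LFC -0.75, SE 0.25, adjusted p = 0.139). *eIF3f1* had 457, 695 and 664 CPM in fed AFCs, 702, 531 and 533 in starved AFCs, and 419.7, 433 and 375 in SFCs, with SFCs below both AFC groups (LFC -0.57, SE 0.25, adjusted p = 0.238). *eIF3a*, the largest subunit of the scaffold, had an LFC of -0.74 and *eIF3h* of -0.53, also with no overlap between groups. Exons of *eIF3h* overlap *senju* on the other strand. The exception was *eIF3b*, a core subunit of the scaffold, which was read at 334, 325 and 422 CPM in fed AFCs, 529.5, 456 and 479 in starved AFCs, and 334, 562 and 510.0 in SFCs. SFC replicates 2 and 3 were above every fed AFC library and replicate 1 was among them (LFC 0.38, SE 0.25, adjusted p = 0.424).

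**Figure D3:**
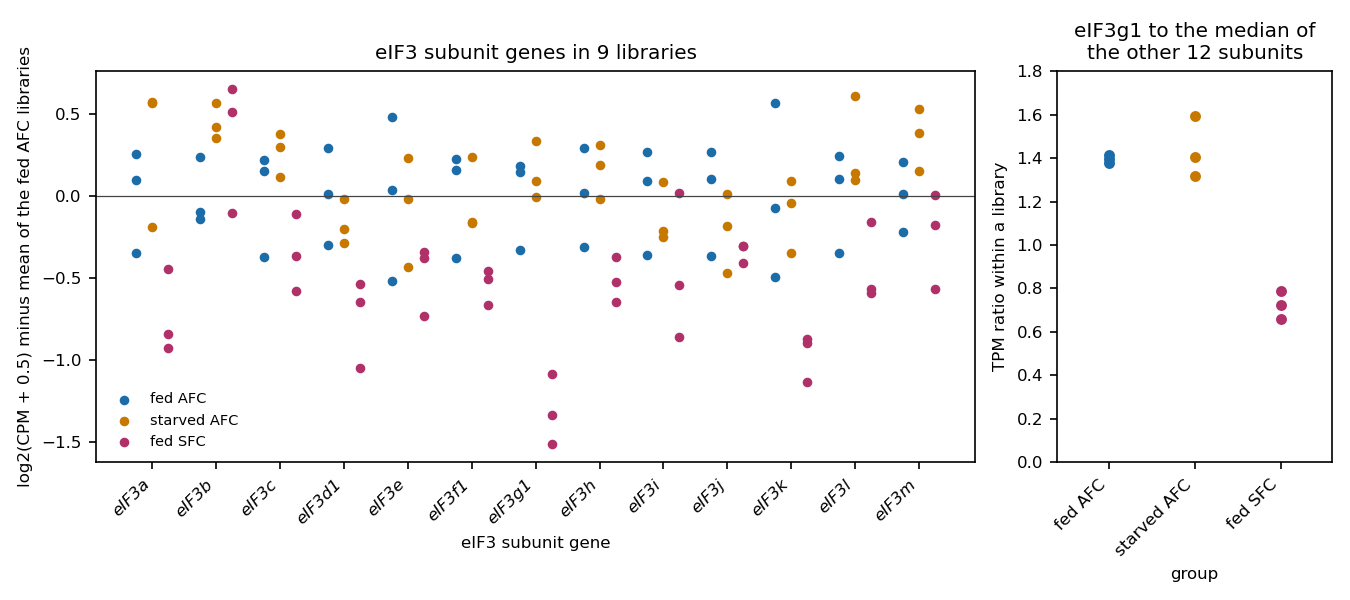
Left, log2(CPM + 0.5) of the 13 eIF3 subunit genes tested (x axis) in each of the 9 libraries, minus the mean of the 3 fed AFC libraries. Right, the TPM of *eIF3g1* divided by the median TPM of the other 12 subunits in each library, which is 0.66 to 0.79 in SFCs and 1.32 to 1.60 in the 6 AFC libraries.

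For initiator tRNA and start codon recognition, 6 of 9 genes had an LFC below 0 in SFCs against fed AFCs, and none passed the test. *eIF1*, which guards the choice of start codon, was read at 474, 455 and 636 CPM in fed AFCs, 372, 273 and 498 in starved AFCs, and 301, 352 and 216 in SFCs. SFCs were below fed AFCs without overlap (LFC -0.85, SE 0.29, adjusted p = 0.139), while starved AFC replicate 2 lay among the SFC values. *eIF2D*, a factor that can place tRNA on the ribosome outside the canonical route, had 81.2, 128 and 104 CPM in fed AFCs, 118, 93.2 and 84.8 in starved AFCs, and 67.6, 81.9 and 52.0 in SFCs. SFC replicate 2 reached just above fed AFC replicate 1, and all 3 SFC values were below the starved ones (LFC -0.63, SE 0.25 against fed AFCs, adjusted p = 0.185). It overlaps *Pglym78* on the other strand. The 3 subunits of eIF2 itself had LFCs of -0.52 (*eIF2alpha*, the target of the stress kinases), -0.42 (*eIF2beta*) and 0.01 (*eIF2gamma*, the GTP-binding subunit), with adjusted p of 0.254, 0.394 and 0.980. *eIF5* and *eIF5B*, the factors that trigger GTP hydrolysis and join the subunits, were at 0.25 and 0.03. All 5 eIF2B subunits had an LFC below 0, between -0.71 and -0.16, and none passed the test. *eIF2Bbeta* was read at 97.9, 98.4 and 117 CPM in fed AFCs, 112, 83.8 and 115 in starved AFCs, and 50.3, 85.0 and 56.5 in SFCs. SFCs did not overlap with fed AFCs (LFC -0.71, SE 0.24, adjusted p = 0.140), and its exons overlap *CG2680* on the other strand. *eIF2Bgamma* had 49.1, 49.7 and 61.8 CPM in fed AFCs, 56.5, 47.6 and 60.4 in starved AFCs, and 43.0, 46.6 and 29.8 in SFCs, and all 3 SFC values were below the 6 AFC values (LFC -0.43, SE 0.23 against fed AFCs, adjusted p = 0.324). *eIF2Bepsilon*, the catalytic subunit, had 21.2, 37.5 and 23.4 CPM in fed AFCs, 57.9, 27.3 and 28.6 in starved AFCs, and 35.9, 14.1 and 17.7 in SFCs, with 1 high library in each of the groups and overlap throughout.

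The eIF4 genes had no common direction in SFCs against fed AFCs: 5 of the 9 tested had an LFC above 0 and 4 below, and none passed the test. *eIF4B*, an RNA-binding helper of the helicase, was read at 132, 151 and 173 CPM in fed AFCs, 113, 109.8 and 175 in starved AFCs, and 72.8, 130.4 and 113 in SFCs. SFCs were below fed AFCs without overlap (LFC -0.53, SE 0.27, adjusted p = 0.301) and overlapped with starved AFCs. *eIF4A* (LFC 0.29, SE 0.29) and *eIF4E1* (LFC 0.02, SE 0.22) overlapped between the groups. The scaffold *eIF4G1* had 124, 148 and 164 CPM in fed AFCs, 98.3, 102 and 107 in starved AFCs, and 101, 164 and 152 in SFCs, and SFC and fed AFC values overlapped (-0.07). Its relative *eIF4G2*, needed for male meiosis in flies and overlapping *CG33111* on the same strand, had 38.0, 24.0 and 16.9 CPM in fed AFCs, 17.0, 29.9 and 17.4 in starved AFCs, and 30.3, 25.0 and 74.9 in SFCs, and *eIF4H1*, a second helper of the helicase, had the values given above. For *eIF4G2*, *eIF4H1* and *eIF4EHP* alike SFC replicate 3 was the highest of the 9 libraries, while SFC replicates 1 and 2 lay in or near the fed AFC range. Their LFCs of 0.72, 0.76 and 0.48 had adjusted p of 0.369, 0.401 and 0.447. The fitted LFCs of *eIF4E5* and *eIF4H2* rest on the few reads given above and are not read as sizes, and they are the eIF4 points at the far left in the plot of LFC by role. Both genes remain in the counts of members and in the eIF4 medians. *eIF4E5* is among the members counted as lower without overlap, in SFCs and in starved AFCs, and its reads were highest in fed AFCs. *eIF6*, which keeps the large ribosomal subunit from joining too early, had 124, 154 and 156 CPM in fed AFCs, 122, 110.3 and 109 in starved AFCs, and 107, 99.1 and 84.7 in SFCs. Its 3 SFC values were the lowest of the 9 (LFC -0.58, SE 0.20, adjusted p = 0.144).

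Of the 8 elongation factor genes, 7 had an LFC below 0 in SFCs against fed AFCs, and none passed the test. *eEF1alpha1* was read at 4214, 10609 and 7676 CPM in fed AFCs, 6175, 4339.7 and 4810.3 in starved AFCs, and 3762, 7014 and 4258 in SFCs. The fed AFC libraries spanned more than the difference between the groups (LFC -0.58, SE 0.41, adjusted p = 0.443). *eEF1beta* had 1217, 2518 and 1611 CPM in fed AFCs, 1991, 1517 and 1598 in starved AFCs, and 1191, 1535 and 993 in SFCs, with overlap between SFCs and fed AFCs (LFC -0.52, SE 0.32, adjusted p = 0.390). *eEF5* had 873, 1553 and 1378 CPM in fed AFCs, 1184, 768 and 927 in starved AFCs, and 838, 846 and 554 in SFCs. Here SFCs did lie below fed AFCs, though 846 against 873 CPM left a narrow gap (LFC -0.77, SE 0.31, adjusted p = 0.200), and an exon overlaps *lncRNA:CR44814* on the other strand. *eEF2*, the translocase, was at -0.22, and *eEF1gamma* and *eEF1delta*, partners in the exchange complex, were at -0.49 and -0.11. *eEF1alpha2* was the exception, with an LFC of 1.30 (SE 0.61, adjusted p = 0.264), which rests on SFC replicates 2 and 3. The summed muscle list was 1602, 2249 and 989 CPM in the 3 SFC libraries, in which *eEF1alpha2* was at 3.84, 23.0 and 11.4 CPM, and its part in this difference was not tested. Neither termination factor passed the test. *eRF1*, which reads the stop codon, had 139, 146 and 158 CPM in fed AFCs, 124, 123 and 137 in starved AFCs, and 153, 128 and 117 in SFCs. *eRF3*, its GTPase partner, had 61.5, 103 and 96.1 CPM in fed AFCs, 45.5, 69.3 and 57.5 in starved AFCs, and 51.3, 87.4 and 101 in SFCs. Both overlapped between SFCs and fed AFCs, at LFCs of -0.16 and -0.12.

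The cytosolic synthetases had an LFC below 0 in 16 of 20 in SFCs against fed AFCs, 9 without overlap between the groups (55.9% and 11.8% of all genes), and none passed the test (edgeR's quasi-likelihood test). *GlyRS* (FBgn0027088, chromosome 3L from 15095142 to 15097686) was read at 93.9, 159 and 152 CPM in fed AFCs, 164, 119 and 120.1 in starved AFCs, and 88.9, 57.6 and 59.4 in SFCs. SFC replicates 2 and 3 were well below every AFC library and replicate 1 only just below fed AFC replicate 1 (LFC -0.98, SE 0.27, adjusted p = 0.0762). The subunit gene *alpha-PheRS* had 148, 197 and 209 CPM in fed AFCs, 219.8, 153 and 179.6 in starved AFCs, and 126, 91.4 and 94.0 in SFCs, with SFCs the lowest (LFC -0.83, SE 0.24, adjusted p = 0.0864). Its partner *beta-PheRS* had an LFC of -0.81, and the TPM ratio of alpha to beta was 1.74 to 1.99 in fed AFCs, 1.76 to 2.12 in starved AFCs and 1.74 to 2.14 in SFCs, and the ranges overlapped. *AlaRS* (-0.74), *SerRS* (-0.66), *AsnRS* (-0.58), *ThrRS* (-0.57), *CysRS* (-0.54) and *LysRS* (-0.54) were also below fed AFCs without overlap, at adjusted p from 0.121 to 0.264. *SerRS* and *CysRS* overlap *CG17260* and *sotv* on the other strand.

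Some cytosolic synthetases sit in a multisynthetase complex, known best from mammals. The 8 enzymes listed for it had a median LFC of -0.01 in SFCs against fed AFCs, with 4 above 0 and 4 below, 1 of them without overlap. The 12 enzymes outside it had a median of -0.58, and all 12 were below 0, 8 without overlap. Over all genes the median was -0.10, 55.9% were below 0 and 11.8% were lower without overlap, and the difference between the lists was not tested. The scaffold proteins of the complex did not lie with its enzymes: *AIMP1*, *AIMP2* and *AIMP3* had LFCs of -0.27, -0.90 and -0.81, with adjusted p of 0.570, 0.0755 and 0.121.

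The 15 mitochondrial synthetases were spread around 0 in SFCs against fed AFCs, 5 above and 10 below, and none passed the test. *AspRS-m* (FBgn0051739, chromosome 2L from 16827078 to 16832093) was read at 42.5, 47.6 and 44.1 CPM in fed AFCs, 51.0, 57.6 and 53.3 in starved AFCs, and 60.1, 85.5 and 90.3 in SFCs. Its 3 SFC values were the highest of the 9 and its 3 fed AFC values the lowest (LFC 0.81, SE 0.21, adjusted p = 0.0605). It was called under a stricter count filter (adjusted p = 0.0432), by DESeq2 (0.00753) and without SFC replicate 1 (0.0265), and under no other alternative. With the exon length trend removed its LFC was 0.57 (adjusted p = 0.168), and over all alternatives the adjusted p ranged from 0.00753 to 0.266, the highest being that without fed AFC replicate 3. Its exons overlap *CG13282* on the other strand, and reads of both genes cannot be told apart without strand. *LeuRS-m* had 19.0, 22.6 and 18.8 CPM in fed AFCs, 28.1, 24.2 and 26.1 in starved AFCs, and 33.4, 36.9 and 23.8 in SFCs. SFCs and starved AFCs were each above fed AFCs without overlap (LFC 0.64, SE 0.24, adjusted p = 0.173, in SFCs). *ValRS-m* was at 0.50 and *TyrRS-m* at -0.87, with adjusted p of 0.341 and 0.175. The TPM of *AspRS* was 8.70 to 12.4 times that of *AspRS-m* in fed AFCs, 9.24 to 12.95 times in starved AFCs and 5.20 to 7.64 times in SFCs, and the SFC range lay below the others. For *ValRS* and *ValRS-m* the same ratio was 3.93 to 5.39, 4.59 to 7.04 and 2.34 to 3.40, and for *LeuRS* and *LeuRS-m* it was 2.56 to 3.91, 2.94 to 3.60 and 1.88 to 2.37, again with SFCs the lowest. For *MetRS* and *MetRS-m* it was 2.44 to 3.18, 2.40 to 2.89 and 2.54 to 4.80, with overlap of all groups. In every other pair compared, which leaves out Phe, the SFC and fed AFC ranges overlapped as well. For *TyrRS* and *TyrRS-m* they were 6.31 to 19.7 in SFCs and 6.82 to 11.3 in fed AFCs. The pairs named here were chosen after their values were seen, and the ratios were not tested. Gln, Gly, His, Lys and Thr have no -m gene in the list. Synthetases were called cytosolic when the symbol has no -m, and whether such a gene also serves mitochondria was not looked at.

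**Figure D4:**
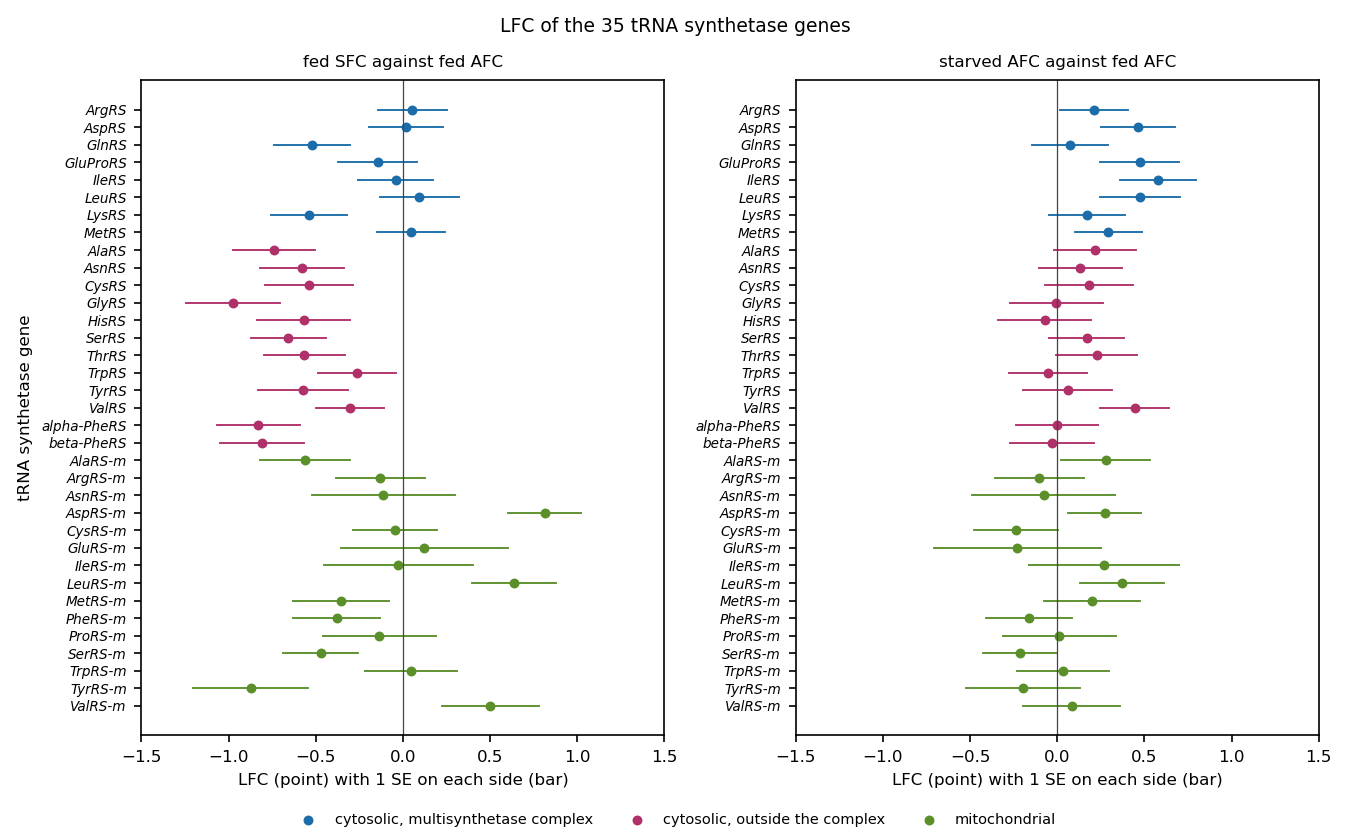
LFC (x axis, point) with 1 SE on each side (bar) of the 20 cytosolic and 15 mitochondrial synthetase genes (y axis) in fed SFCs against fed AFCs (left) and starved against fed AFCs (right). In SFCs the 12 cytosolic enzymes outside the multisynthetase complex all lie below 0, and in starved AFCs the 8 enzymes of the complex all lie above 0.

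Starved AFCs were compared with fed AFCs, with the same driver, to see what loss of dietary yeast did. None of the 82 members was called by edgeR's quasi-likelihood test, where 0.221% of all genes were, all of them lower (0% higher), and DESeq2 called 0 members (1.06% of all genes, 0.0942% higher and 0.963% lower). At an unadjusted p below 0.05, 3 members were higher and 1 lower (2.11% and 2.92% of all genes), and the lowest adjusted p among the members was 0.809. The groups did not overlap for 9 members that were higher and 4 that were lower, where the shares of all genes were 6.17% and 5.91%. The LFC was below 0 in 41 of 82 members, where 58.9% of all genes were below 0, and the median LFC was 0.00 over the members beside -0.09 over all genes. Medians by role were 0.18 for the cytosolic synthetases, 0.13 for eIF3, 0.01 for the mitochondrial synthetases, -0.00 for elongation, -0.07 for the initiator and start codon group, -0.29 for eIF4 and -0.40 for the release factors.

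The members with an unadjusted p below 0.05 after starvation were 3 cytosolic synthetases and *eIF4G1*. *IleRS* was read at 58.7, 59.5 and 76.3 CPM in fed AFCs, 90.2, 88.2 and 112 in starved AFCs, and 74.1, 51.7 and 63.1 in SFCs. All 3 starved values were the highest of the 9 libraries (LFC 0.58, SE 0.22, adjusted p = 0.809). *AspRS* and *ValRS* were also above fed AFCs without overlap, at LFCs of 0.46 and 0.44. Of the 8 enzymes of the multisynthetase complex all 8 had an LFC above 0 (median 0.38), 4 of them without overlap, where 6.17% of all genes were higher without overlap. The 12 outside it were split 7 above and 5 below (median 0.10), and the difference between the lists was not tested. The 3 scaffold genes had LFCs of -0.31, -0.30 and -0.17, on the other side of 0 from the enzymes. *eIF4G1* lay below fed AFCs in all 3 starved libraries, at 98.3, 102 and 107 CPM against 124, 148 and 164 in fed AFCs (LFC -0.51, SE 0.23, adjusted p = 0.968). In the other roles the smallest p belonged to *eIF3b* (0.44, starved above fed without overlap), *eRF3* (-0.60), *eIF6* (-0.35, starved below fed without overlap), *eIF1* (-0.45), *LeuRS-m* (0.37), *eEF1alpha1* (-0.55) and *eIF2Bepsilon* (0.47). *eIF3g1* was at 0.13 (SE 0.23, adjusted p = 0.984).

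Fed SFCs were also set against starved AFCs, which shares the SFC libraries with the first comparison and the starved libraries with the other. Again 1 member was called, *eIF3g1*, lower in SFCs (LFC -1.45, SE 0.24, adjusted p = 0.00919, edgeR's quasi-likelihood test), where 2.22% of all genes were called, 1.24% higher and 0.975% lower. The call was lost without SFC replicate 2 (adjusted p = 0.0555). SFCs lay below starved AFCs without overlap for 31 members and above for 1, *AspRS-m*, and the shares of all genes were 13.5% and 11.2%. The median LFC was -0.36 over the members and -0.02 over all genes, and the LFC was below 0 in 65 of 82 members (79.3%) against 51.1% of all genes. At an unadjusted p below 0.05, 25 members were lower and 3 higher (8.73% and 9.21% of all genes). DESeq2 called 19, 18 lower and 1 higher (9.33%, 4.53% and 4.79% of all genes). All 20 cytosolic synthetases had an LFC below 0 (median -0.67), 17 of them without overlap, with *GlyRS* (-0.97), *AlaRS* (-0.96), *alpha-PheRS* (-0.83) and *SerRS* (-0.83) farthest from 0. *AlaRS* had the lowest adjusted p of them, at 0.0607. All 13 eIF3 genes tested were below 0 as well (median -0.59), among them *eIF3a* (-1.08) and *eIF3k* (-0.87). The mitochondrial synthetases had a median of -0.04, with 6 above 0 and 9 below. *eIF4H1* was the member with the highest LFC, at 1.46 (SE 0.49, adjusted p = 0.148), on 45.1, 96.9 and 199.6 CPM in SFCs against 25.2, 44.2 and 54.9 in starved AFCs, and DESeq2 called it. Without SFC replicate 1, 7 members were called, 6 lower and 1 higher, and the share of all genes in that fit is not given here.

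The genes around the members were described by lists in the same fit. Of 19 regulators of initiation and elongation tested, none passed the test in SFCs against fed AFCs, with 4 lower and 3 higher at an unadjusted p below 0.05 (10.6% and 9.06% of all genes), and DESeq2 called 3 lower. The median LFC was -0.13. *MCTS1* and *DENR*, partners in recycling and reinitiation, had LFCs of -0.93 and -0.81 (adjusted p = 0.0540 and 0.0782), and *crc*, the fly ATF4, -0.61 (adjusted p = 0.212). *PEK*, a kinase of eIF2alpha in the endoplasmic reticulum, had 0.50, and *S6k* and *NAT1* had 0.67 and 0.62. *Thor*, the inhibitor that binds eIF4E, had -0.51 in SFCs and 0.14 in starved AFCs. After starvation *Paip2*, an inhibitor of the poly(A)-binding protein, had the lowest p of this list, with an LFC of -0.96 (SE 0.29, adjusted p = 0.530), and *pAbp* itself had -0.59. *Gcn2*, the eIF2alpha kinase that senses uncharged tRNA, was at 0.54 in starved AFCs (adjusted p = 0.982). *Dhps*, which starts the hypusine modification of eEF5, was at -0.56 in SFCs, beside -0.77 for *eEF5*.

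Ribosomal protein genes had lower medians in SFCs than the members did, and the difference was not tested. The 89 cytoplasmic ribosomal protein genes tested of 93 had a median LFC of -0.91 in SFCs against fed AFCs, with 88 below 0, and none passed the test (56 were lower at an unadjusted p below 0.05, and DESeq2 called 49 lower, where 10.6% and 6.46% of all genes were). The 73 mitochondrial ribosomal protein genes had a median of -0.65, with 71 below 0 and 4 called lower by edgeR's quasi-likelihood test (1.78% of all genes), 45 lower at an unadjusted p below 0.05 and 22 called lower by DESeq2. The 9 mitochondrial translation factors tested had a median of -0.15, and the 15 mitochondrial synthetases, which serve the same ribosomes, -0.11. In starved AFCs the medians were -0.01, -0.21, -0.05 and 0.01 in the same order, and none of these genes passed the test. The median centered log2 level of the members was -0.14, 0.19 and 0.24 in fed AFCs, 0.30, 0.02 and 0.14 in starved AFCs and -0.17, -0.16 and -0.45 in SFCs. Fed AFC replicate 1 was thus close to SFC replicates 1 and 2 on this scale.

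Length and transcript choice were looked at as properties of the members. Across the 82 members, a longer gene had a higher LFC in SFCs against fed AFCs (Spearman rho 0.50, against 0.20 across the 10870 genes tested). The points share libraries and are not independent. With the length trend removed in the fit the median LFC of the members was -0.34 in place of -0.36. In starved against fed AFCs rho was 0.36 against -0.03 across all genes, and the median LFC went from 0.00 to 0.01. In SFCs against starved AFCs rho was 0.23 against 0.25, and the median LFC went from -0.36 to -0.24. Of the 89 members 52 had more than 1 transcript in the files. *AsnRS*, chosen after its values were seen, had shares of TPM of 74.2%, 65.1% and 66.7% for its shorter transcript of 1982 bases in fed AFCs, 87.4%, 82.5% and 63.6% in starved AFCs and 93.2%, 82.2% and 76.0% in SFCs. All 3 SFC shares were above the fed AFC shares. These shares are estimates from short reads of transcripts that overlap, and they were not tested.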

How the data were processed

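The 9 TRAP-seq libraries fell into 3 groups of 3. The labels number the replicates and the study calls them biological, and nothing further says how they were separated, so p-values measure the spread between these samples.

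Per the submitters' processing notes, reads were handled with bcl2fastq 2.2, cutadapt and Salmon 1.1.0. The estimated counts per transcript were deposited by the authors without normalization, from Salmon on the BDGP6.32 transcripts with GC-bias correction. TPM from the same run of Salmon were also deposited. The kit does not mark strand, so reads of a gene and of a gene overlapping it on the other strand cannot be told apart. At least 1 exon of 38 members overlaps another gene, and only some of these overlaps are named with the values. Among those not named there are overlaps of *eIF2Bgamma*, *eIF2Bdelta*, *eIF2Bepsilon*, *AspRS*, *eRF1* and *eRF3*.

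Transcripts were assigned to genes by identifier with BDGP6.54 (30179 of 30215 matched). Estimated counts were summed per gene and rounded. Genes were kept by filterByExpr with a minimum count of 10, scaled by TMM and fitted in edgeR 4.0.16 under R 4.3.3 (quasi-likelihood test, 1 mean per group, the 9 libraries together). The Benjamini-Hochberg adjustment ran over the 10870 genes of each comparison, with a threshold of 0.05. An SE was taken from the LFC and its F statistic. CPM are TMM-scaled, and TPM were used to compare levels between genes. Ratios of genes and shares of transcripts within a library, which were set beside each other across groups, also used TPM. The number of libraries and their totals limit the precision, and the smallest two-sided p open to an exact permutation of 3 against 3 is 0.1.

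The members and lists were chosen with earlier results of these data known, and the composition of the lists was not changed afterwards. Values in every library are given for members called in any comparison, the 2 of each role with the smallest p in SFCs against fed AFCs, the 1 with the smallest in starved against fed AFCs, the 3 with the highest median TPM and the sets of paralogs. *Tor* and *mEFG2* of the lists were not matched by symbol and are not analysed here. Marker lists for fat body, Malpighian tubule, germline, neuron and haemocyte were also summed, and *Yp1* is on both the fat body and the main body follicle cell list. Alternatives were DESeq2 1.42.0 and its size factors, limma-voom (limma 3.58.1), other count filters, length offsets, rRNA left out, a block for the replicate number, fits without the remaining group and libraries left out. Scripts were tested on simulated data. Tables used Python 3.11.15, pandas 2.3.3 and numpy 2.4.6, and plots matplotlib 3.10.9. Promoter sequences were not analysed here.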

Additional observations from a re-analysis of the deposited data

How the results depend on the processing

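Other settings changed how many members were called more than their LFCs. Shares of all genes are given only for the main fit and for DESeq2, so counts under other settings cannot be set against all genes. In SFCs against fed AFCs, 1 member was called, against 2 under the stricter filter of 50 counts in 3 libraries, 14 by DESeq2 and 2 without fed AFC replicate 1 and SFC replicate 2 together. In SFCs against starved AFCs, 1 was called, against 2 with DESeq2 size factors, 4 under the stricter filter, 19 by DESeq2, 2 by limma-voom and 3 with the exon length trend removed. With each library left out in turn, 0 to 5 members were called in SFCs against fed AFCs, 0 to 7 in SFCs against starved AFCs and 0 to 0 in starved against fed AFCs. Over the same 9 fits the median LFC ranged from -0.43 to -0.25, from -0.43 to -0.24 and from -0.10 to 0.12, in that order. Leaving a library out leaves 2 in its group.

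For the named members under each alternative, 1764 values kept their side of the threshold, 22 gained a call and 4 lost it, and no call changed sign. Deviations from the group means correlated from -0.53 to 0.385 between libraries of the same number, and from -0.498 to 0.637 between different numbers. Whether the numbers mark a shared batch cannot be told from this, and the main fit took no pairing. With the replicate block 1, 0 and 1 members were called and the medians were -0.40, -0.01 and -0.38. All of the 10 members with the highest TPM were also the 10 highest by counts per kilobase. The promoter motif search was not run. The 7 members under the count filter were not tested.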

Other observations

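The other marker lists differed between groups as follows, as values with no test of their part in the results. The 7 fat body genes totalled 6303 to 12121 CPM in fed AFCs, 6018 to 11298 in starved AFCs and 8625 to 21282 in SFCs. In SFCs against fed AFCs 1 of 7 was called higher by edgeR's quasi-likelihood test (1.21% of all genes). The 5 germline genes found of 6 summed to 614 to 1007 CPM in fed AFCs, 568 to 748 in starved AFCs and 852 to 1599 in SFCs, and none of them passed the test. Neuron and haemocyte lists stayed below 26.0 CPM in sum in each library. Both were highest in fed AFC replicate 1, at 25.97 and 16.2 CPM, against 3.28 to 15.8 and 1.56 to 10.2 in the others. In starved AFCs, 3 of the 8 midgut genes and 3 of the 10 main body follicle cell genes were lower than in fed AFCs. Over all genes 0.221% were.

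Of the 26 members with more than 1 transcript at a mean share of TPM of at least 10%, the shares of a transcript did not overlap between starved and fed AFCs in 6 (*SerRS-m*, *eIF2Bdelta*, *eIF2gamma*, *eIF3c*, *eIF4EHP* and *eIF5B*) and between SFCs and fed AFCs in 1 (*AsnRS*). The same count was not made over all genes. In *eIF2gamma*, whose exons overlap *Su(var)3-9* on the same strand, the transcript of 1886 bases took 11.8%, 0% and 0% of the TPM in fed AFCs, 59.8%, 41.1% and 24.3% in starved AFCs and 0%, 0% and 18.1% in SFCs. In *eIF2Bdelta* the transcript of 2033 bases took 5.12%, 21.1% and 17.7% in fed AFCs, 53.3%, 40.9% and 63.9% in starved AFCs and 48.9%, 0% and 57.5% in SFCs. In *eIF5B* the transcript of 4006 bases took 7.86%, 44.6% and 17.8% in fed AFCs, 4.97%, 5.44% and 6.81% in starved AFCs and 2.96%, 0% and 26.4% in SFCs. These 3 were chosen after their values were seen, and none was tested.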
